A study of Mus musculus with 16 samples.

Results

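Hippocampal RNA was compared between Kcna1 knockout and wild type mice that had all been fed a ketogenic diet, in which fat replaces most of the carbohydrate. The comparison took, by the genotype and diet in their column names, 8 of the 16 libraries of the study: 4 from knockout animals and 4 from wild type animals. The other 8 libraries came from knockout and wild type mice on a standard diet, 4 of each, and served for the estimate of the spread and for values set side by side. The question was which differences between the genotypes were present when every animal ate the ketogenic diet. The 2 groups shared the diet and the tissue by label. The labels gave the genotype, the diet and the tissue, and gave no strain, age, sex, allele construction or duration of the diet. Each library carried the tag of 1 animal, and single libraries are named below by that tag.

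Kcna1 encodes Kv1.1, a voltage-gated potassium channel subunit that sits in axons and near their terminals, where it repolarises the membrane and limits repetitive firing and transmitter release. Mice without it have spontaneous seizures and are used as a model of epilepsy. In the hippocampus, seizures and strong synaptic activity are known to switch on immediate early genes within minutes, then slower neuropeptide genes, and repeated seizures are known to make astrocytes reactive. A ketogenic diet moves brain fuel use from glucose towards ketone bodies and is used against some epilepsies.

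Kcna1 itself was measured first, since it checks the labels. Levels are CPM, a gene's counts relative to the library's total, scaled with factors that match the bulk of genes between libraries. The 4 wild type libraries, always given in the order KC842L, KC843RL, KC844RR and KC846L, held Kcna1 at 115, 130, 107 and 114 CPM. The knockout libraries, always in the order KC913RR, KC916RRL, KC934R and KC935LL, held it at 43.4, 44.6, 47.2 and 43.5 CPM. The groups did not overlap, and the 4 knockout values lay within a narrow range. The mean was 117 ± 9.65 CPM in wild type and 44.7 ± 1.78 CPM in knockout (SD, n = 4 each), so the gene's row held 38.3% of the wild type level, and Kcna1 fell by 1.38 ± 0.15 on the log2 scale (SE, adjusted p = 0.0032 by edgeR's quasi-likelihood test with Benjamini-Hochberg adjustment). With 1 surrogate variable estimated from the data the difference of Kcna1 was -1.26 and its call was lost (adjusted p = 0.0837, the same edgeR test). Kcna1 lies on the minus strand of chromosome 6, at chr6:126640397-126646384 of GRCm38. On the standard diet the same contrast gave -1.13 ± 0.15, where the library labelled knockout KC888LL held 82 CPM and the other 3 held 44.6 to 47 CPM, and the interaction of genotype and diet had an unadjusted p of 0.247. The Kcna1 level of KC888LL goes against its label, which was kept. Every standard diet difference and interaction below counts that library as a knockout unless said otherwise. Without it, the standard diet difference of Kcna1 was -1.39, and the number of genes called on that diet went from 1 to 1016 in edgeR's quasi-likelihood test. With the 12 libraries that express Xist, the difference was -0.91, 0 genes were called on that diet by the same test and 545 had an unadjusted p under 0.05. That fit keeps 2 libraries labelled knockout on the standard diet, KC893RL and KC888LL. Every standard diet value and interaction given below for those 12 libraries has this limit.

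Sequencing gave between 13440230 and 22309504 counts per library in the 8 libraries, over 49315 genes, and 17469 genes passed the filter on low counts. Correlations of log2 CPM ran from 0.985 to 0.992 between wild type libraries, from 0.977 to 0.99 between knockout libraries and from 0.973 to 0.99 across genotypes. Xist, expressed from the inactive X chromosome, was at 8.84 CPM in wild type KC846L and at 735 to 822 CPM in the other 7, and the Y-linked Ddx3y was at 56.5 CPM in KC846L, so 1 of 4 wild type and 0 of 4 knockout libraries had a male pattern. On the standard diet 1 of 4 wild type libraries and 2 of 4 labelled knockout had it, KC872RL and KC873RR, so the sex pattern differs between the diets' contrasts as well. Transthyretin, Ttr, made by the choroid plexus, was at 957 CPM in wild type KC844RR and at 3.95 to 31.2 CPM in the other 7. The p-values measure the spread between these animals.

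Of the 17469 genes tested, 3 were called at an adjusted p under 0.05, which is 0.0172%: Kcna1 and Btg2 fell, and Gapdh rose. Without a correction for multiple tests, 916 genes (5.24%) had p under 0.05 and a higher level in knockout, and 694 (3.97%) a lower one. All 4 knockout libraries lay above all 4 wild type libraries for 350 genes (2.00%), and below them for 346 (1.98%). Counts of members below are to be read against these shares, and a gene other than these 3 is described by its values, since it did not pass the adjusted test in edgeR's quasi-likelihood fit. The number of calls moved from 1 to 13 when single libraries of the 2 groups were left out, and Kcna1 was called each time. DESeq2 called 33 genes, among them these 3 and 22 others that are named below: Alas2, C2cd4c, Col12a1, Col3a1, Dusp1, Faxc, Fxyd7, Gm45869, Hba-a1, Hbb-bs, Hbb-bt, Junb, Mir6982, Ncapd2, Npas4, Per1, Plekhg1, Rapgef4, Rxfp3, Soga3, Ston2 and Vwf.

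**Figure D1:**
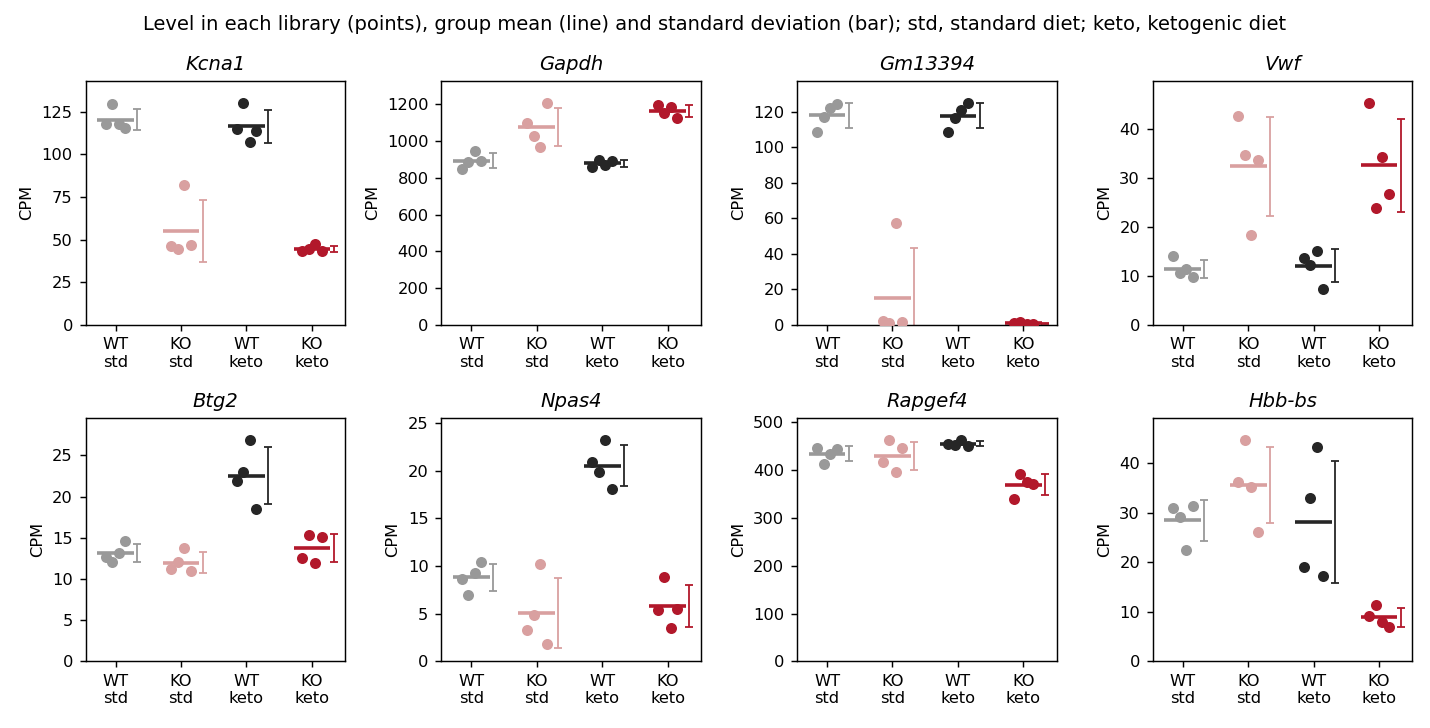
Level in CPM of 8 genes in wild type (WT) and knockout (KO) mice on the standard (std) and ketogenic (keto) diet, with 1 point per library, a line at the group mean and a bar for the SD (n = 4). On the ketogenic diet the groups do not overlap for any of the 8, and Btg2 and Npas4 are highest in wild type on that diet.

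Gapdh, the glycolytic enzyme glyceraldehyde-3-phosphate dehydrogenase, was at 857, 899, 872 and 893 CPM in wild type and at 1197, 1151, 1185 and 1124 CPM in knockout. Every knockout library lay above every wild type library. The gene rose by 0.40 ± 0.06 on the log2 scale (SE, adjusted p = 0.0243, edgeR quasi-likelihood test with Benjamini-Hochberg adjustment). Gapdh lies at chr6:125161715-125166467, 1.47 Mb from Kcna1, and its span overlaps Iffo1 on the opposite strand, which averaged 73 CPM. Leaving out single ketogenic diet libraries gave adjusted p from 0.0266 to 0.141. The Gapdh call was lost without wild type KC842L (adjusted p = 0.0902), KC843RL (0.0894) or KC844RR (0.141), without knockout KC934R (0.122), with 1 surrogate variable estimated from the data (0.0837) and with the 12 libraries that express Xist (0.0961). In the fits that lost the call the log2 difference ran from 0.36 with the surrogate variable to 0.42 without KC843RL. With Xist as a covariate the call was kept (log2 difference 0.40, adjusted p = 0.0392, the same edgeR test). The standard diet gave a log2 difference of 0.27 ± 0.06.

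The processed pseudogene Gm13394 had lower counts. Its row held 109, 116, 121 and 125 CPM in wild type and 0.87, 1.35, 0.331 and 0.587 CPM in knockout, a fitted log2 difference of -7.29 ± 1.3 (adjusted p = 0.167, edgeR quasi-likelihood test with Benjamini-Hochberg adjustment). The groups were far apart with no overlap, and this test missed the threshold. With all 16 libraries Gm13394 passed in limma-voom (adjusted p = 0.0289) and in edgeR without robust estimation (0.02). In the libraries labelled knockout on the standard diet, Gm13394 was at 57.1 CPM in KC888LL and at 0.932 to 1.91 CPM in the other 3. With the 8 ketogenic diet libraries alone the adjusted p was 1.74e-08, and without KC888LL, labelled knockout on the standard diet, it was 8.49e-14. Gm13394 lies at chr2:28933610-28934609 on the minus strand, within the span of Cfap77 on another chromosome than Gapdh.

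Gm13394 is a near copy of Gapdh, shown here because most of its reads would match Gapdh equally well. Over its 1000 bases it differs from the Gapdh transcript of GENCODE M21 by 1 substitution, A346C, with the Gapdh base first and positions counted from 1 at the 5′ end of Gm13394 (99.9% identity). The 41 bases around that position are given in the sense of the transcript, with the differing base in capitals.
Gapdh: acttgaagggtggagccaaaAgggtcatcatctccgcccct
Gm13394: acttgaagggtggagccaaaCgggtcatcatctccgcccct
Within those 1000 bases, a read that misses that base has the same letters in both rows, so how the counts were divided between them is uncertain. Summed, the pair of rows held 997.9 ± 24.5 CPM in wild type and 1165 ± 33.2 CPM in knockout (SD, n = 4 each). The summed values were 965.2, 1015, 993.1 and 1018 CPM against 1198, 1152, 1186 and 1124 CPM, still without overlap. With both rows merged into 1, a choice made after seeing the data, the log2 difference was 0.22 with an adjusted p of 0.346, so the Gapdh call rests on counting the rows apart. In that fit the adjusted p of Btg2 was 0.0688, and Kcna1 was the 1 gene called. The 64 other copies with at least 95% identity summed to 8.945 CPM in wild type and 8.619 CPM in knockout.

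Several other genes of chromosome 6 near Kcna1 also separated the groups. Within 1 Mb of Kcna1, 5 of 17 tested genes had an unadjusted p under 0.05 (29.4%), within 5 Mb 24 of 103 (23.3%), within 10 Mb 29 of 174 (16.7%) and within 20 Mb 45 of 310 (14.5%). The share was 10.9% of the 577 genes of chromosome 6 farther away and 9.07% of the 16526 genes on other chromosomes, against 9.22% of all genes. Within 5 Mb, 11 genes were higher and 5 lower in knockout without overlap of the groups. Of the 24 genes within 5 Mb, 21 had the same sign on the standard diet, in animals that this contrast does not use, beside 69.4% of all 1610 genes with such a p. Loss of Kcna1 and other differences linked to its locus cannot be told apart in this design.

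**Figure D2:**
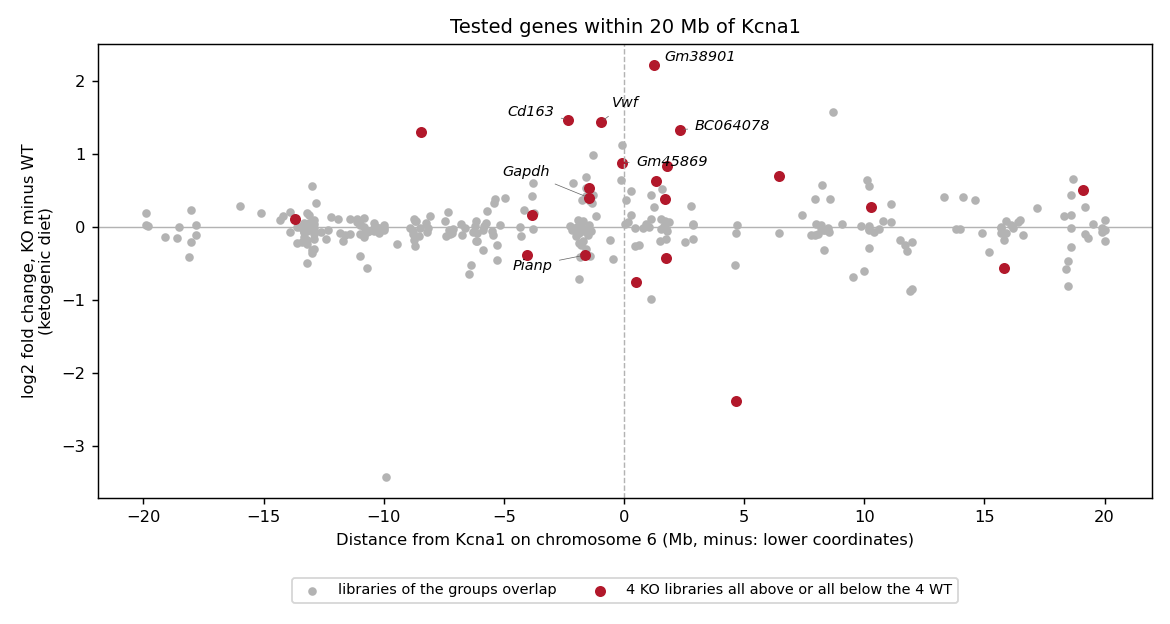
Log2 difference between knockout and wild type on the ketogenic diet for each tested gene within 20 Mb of Kcna1, against its distance from Kcna1 in Mb. Red points are genes whose 4 knockout libraries lay all above or all below the 4 wild type libraries, grey points genes whose groups overlapped; within 5 Mb, 11 red points lie above 0 and 5 below.

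Vwf, which encodes von Willebrand factor, a clotting protein of endothelial cells, lies 0.954 Mb from Kcna1. It was at 13.7, 12.3, 15 and 7.33 CPM in wild type and at 45.4, 23.9, 34.4 and 26.8 CPM in knockout. All 4 knockout libraries were above all 4 wild type ones, and the log2 difference was 1.44 ± 0.28 (adjusted p = 0.17, edgeR quasi-likelihood test with Benjamini-Hochberg adjustment). Its difference on the standard diet was 1.5 ± 0.28. In bulk tissue, a difference in the number of cells of a type and one in the RNA per cell cannot be told apart. Of 13 endothelial genes listed, 4 were higher and 2 lower at an unadjusted p under 0.05.

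Ncapd2, a condensin subunit used in chromosome packing, was at 18.3, 15.7, 18.9 and 19.0 CPM in wild type and at 20.2, 26.5, 29.0 and 28.7 CPM in knockout, again without overlap. Its log2 difference was 0.54 on the ketogenic and 0.67 on the standard diet. Pianp, a membrane protein that binds the receptor PILR-alpha, was lower in knockout, at 131 to 142 CPM in wild type and 86.2 to 119 CPM in knockout. The log2 difference of Pianp was -0.38, beside -0.51 on the standard diet. The long noncoding RNA gene Gm45869, 0.0842 Mb from Kcna1, held 6.6, 7.02, 6.48 and 9.97 CPM against 12, 13.8, 11.2 and 18.6 CPM, a log2 difference of 0.88. Gm45869 overlaps Gm33320 on the same strand, whose own log2 difference was 1.12, so the division of reads between them is uncertain. A further 3 genes of the interval were higher in knockout without overlap at low levels: Gm38901 by 2.23, BC064078 by 1.33 and Cd163, a haemoglobin scavenger receptor of macrophages, by 1.47 on the log2 scale. Cd163 stayed at or under 3.21 CPM in every library.

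Btg2, an antiproliferative gene that is induced as an early response to activity and to stress, was at 21.8, 23, 26.9 and 18.5 CPM in wild type and at 12.6, 15.3, 11.9 and 15.1 CPM in knockout. The groups did not overlap. Btg2 fell by 0.71 ± 0.12 on the log2 scale (SE, adjusted p = 0.0458, edgeR quasi-likelihood test with Benjamini-Hochberg adjustment). On the standard diet Btg2 averaged 13.1 CPM in wild type and 12 CPM in knockout, a log2 difference of -0.13 (-0.21 without KC888LL), so the wild type libraries on the ketogenic diet were the high group of the 4. The difference between the diets' effects had an unadjusted interaction p of 0.00263 and an adjusted p of 0.654 by the same edgeR test. Across fits with single ketogenic diet libraries left out, the adjusted p of Btg2 ran from 0.0142 to 0.289. The call was lost without wild type KC842L (0.0902), KC843RL (0.235) or KC844RR (0.289) and without knockout KC913RR (0.067) or KC934R (0.263). It was lost with the 8 ketogenic diet libraries alone (0.409), with 1 surrogate variable (0.145) and with the 12 libraries expressing Xist (0.0819). In the fits that lost the call the log2 difference ran from -0.80 with the Xist libraries to -0.61 with the surrogate variable. With Xist as a covariate the call was kept (log2 difference -0.76, adjusted p = 0.0237, the same edgeR test).

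Tob1 and Tob2, relatives that also recruit the mRNA deadenylation machinery, had lower values. Tob1 was at 28.7 to 36.6 CPM in wild type and 20.8 to 30.8 CPM in knockout, and Tob2 at 33.2 to 40.2 and 25.4 to 33 CPM. The log2 differences were -0.31 for Tob1 and -0.35 for Tob2. Of 5 tested Btg and Tob genes, 4 had a log2 difference below 0 and 3 were lower at an unadjusted p under 0.05, and the interaction had p under 0.05 for the same number, with an effect more negative on the ketogenic diet (4.09% of all tested genes).

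Immediate early genes encode transcription factors and synaptic proteins that active neurons induce quickly, and their transcription needs no new protein synthesis. Of 26 listed, 14 were lower in knockout at an unadjusted p under 0.05, beside 3.97% of all genes, and 1 was higher. Of the same 26, 10 were lower without overlap, beside 1.98%, and the median log2 difference was -0.57, beside 0.00348 over all tested genes. On the standard diet the median was -0.49, with 11 of 26 lower at an unadjusted p under 0.05, beside 6.69% of all genes. That number was 13 without KC888LL (10.6% of all genes) and 0 with the 12 libraries that express Xist (1.49%). The number of lower genes stayed between 12 and 18 when single ketogenic diet libraries were left out. Btg2 is one of the 26.

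Npas4, a transcription factor induced in neurons by calcium entry, was at 20.9, 19.9, 23.2 and 18.1 CPM in wild type and at 5.35, 8.82, 3.54 and 5.46 CPM in knockout. Every knockout library held less than the lowest wild type library. The log2 difference was -1.84 ± 0.37 (adjusted p = 0.193, edgeR quasi-likelihood test with Benjamini-Hochberg adjustment). Npas4 passed the threshold with all 16 libraries in DESeq2 (adjusted p = 0.00938) and limma-voom (0.0191), and in edgeR with the 8 ketogenic diet libraries (0.0363) and without KC888LL of the standard diet (0.0111). On the standard diet Npas4 averaged 8.81 CPM in wild type and 5.04 CPM in knockout, a log2 difference of -0.80, which was -1.41 without KC888LL and -0.54 with the 12 libraries that express Xist. For Npas4 too the wild type libraries on the ketogenic diet were the high group.

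Arc, whose product acts at active synapses to remove glutamate receptors, was at 134, 126, 150 and 146 CPM in wild type and at 76.0, 69.2, 27.2 and 43.0 CPM in knockout. Nr4a1, a nuclear receptor, was at 77.8, 62.0, 82.1 and 72.4 CPM against 39.0, 37.5, 17.9 and 23.6 CPM. The zinc finger factor Egr1 was at 124, 107, 127 and 131 CPM against 82.5, 61.2, 26.6 and 43.4 CPM. All 3 were lower in every knockout library, with the lowest value in KC934R, and their log2 differences were -1.38 for Arc, -1.33 for Nr4a1 and -1.20 for Egr1. Egr2, a related zinc finger factor, had a log2 difference of -2.02 at 3.01 to 3.95 CPM in wild type and 0.221 to 1.94 CPM in knockout. Junb, an AP-1 subunit, was at 62.7 to 73.7 against 30.8 to 58.5 CPM (log2 difference -0.68), and Ier2, a nuclear protein, at 5.99 to 6.3 against 1.64 to 5.55 CPM (-0.78). The phosphatase Dusp6, which switches off ERK, was at 52.4 to 70.3 against 24.2 to 44.4 CPM (-0.73). None of these 7 groups overlapped.

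Of the 26 genes, 7 had a log2 difference above 0, and the AP-1 subunit Jun was the 1 with an unadjusted p under 0.05. Jun was at 149, 141, 147 and 126 CPM in wild type and 178, 180, 171 and 160 CPM in knockout. The groups did not overlap, and the log2 difference of Jun was 0.29 on the ketogenic and 0.40 on the standard diet. Dusp1, a phosphatase that acts on stress kinases, was at 26.2, 23.1, 28.5 and 15.8 against 9.9, 17.4, 10.3 and 11.7 CPM. Its log2 difference was -0.93, with wild type KC846L below knockout KC916RRL, and its span overlaps Ergic1 on the opposite strand at 84.4 CPM. Dusp1 passed in edgeR's quasi-likelihood test without KC846L (adjusted p = 0.0346) and without KC916RRL (0.0266).

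Knockout library KC913RR stood apart within this list. The mean log2 CPM over the 26 genes was 4.47 to 4.77 in wild type, 4.69 in KC913RR, and 4.04, 3.57 and 3.67 in the other knockout libraries. Among the knockout libraries, 18 of the 26 genes were highest in KC913RR, 14 were lowest in KC934R and 10 were lowest in KC935LL. Fos was at 25.4 CPM in KC913RR and at 6.73, 1.38 and 2.82 CPM in the others, beside 11.7 to 20.8 CPM in wild type. Fosb was at 48.2 CPM in KC913RR and at 6.51, 6.46 and 5.99 CPM in the others, beside 9.97 to 15.3 CPM in wild type. Without KC913RR the log2 difference of Fosb was -1.06 with an adjusted p of 0.0225 (edgeR quasi-likelihood test with Benjamini-Hochberg adjustment), and with it the difference was 0.34.

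**Figure D3:**
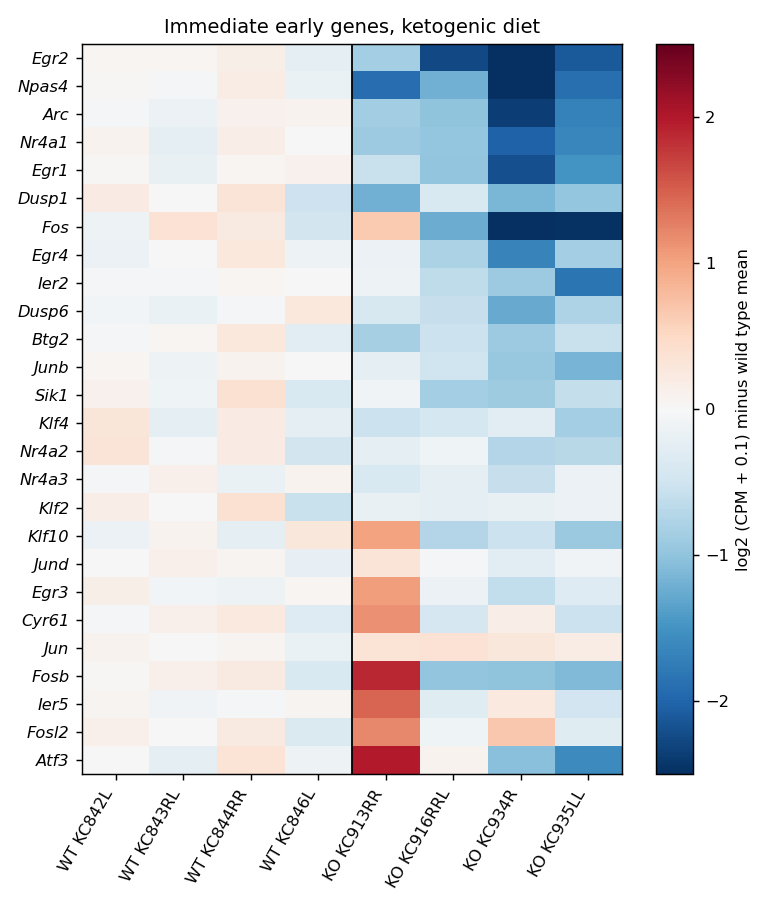
Heat map of the 26 listed immediate early genes (rows) in the 8 ketogenic diet libraries (columns), coloured by log2(CPM + 0.1) minus the mean of the 4 wild type libraries, with the colour at its limit beyond ±2.5. Most genes lie below the wild type mean in KC916RRL, KC934R and KC935LL, and Fos and Fosb lie above it in KC913RR.

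Promoters of these genes often carry the cyclic AMP response element (CRE), to which the activity-regulated factor CREB binds. The 250 bases before the RefSeq start of 19 of the 26 genes were at hand (GRCm38.p6), and they were searched on both strands for the half-site TGACG and for the full palindrome TGACGTCA, which contains a half-site on each strand. The half-site was in 14 of the 19, beside 19.8% of 27025 genes with such a promoter, and the full site in Btg2 and Dusp1, beside 1.77% of all genes. The CArG box, to which serum response factor binds, was in 1 of the 19, Egr2, beside 1.62%. A match describes the letters of the window and is no evidence of binding.

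The promoters of 4 members with the half-site are shown, in the sense of the transcript, because their genes had some of the smallest p-values of the list. Capitals mark the half-site in either orientation, or the full site where they run on to TGACGTCA.
Btg2, chr1:134079156-134079405, minus strand: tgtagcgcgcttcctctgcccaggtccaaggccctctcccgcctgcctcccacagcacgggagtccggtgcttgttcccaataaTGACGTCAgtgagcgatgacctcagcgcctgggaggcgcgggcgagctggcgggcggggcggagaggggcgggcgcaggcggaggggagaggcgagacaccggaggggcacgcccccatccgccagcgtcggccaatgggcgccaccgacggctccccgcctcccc
Npas4, chr19:4989972-4990221, minus strand: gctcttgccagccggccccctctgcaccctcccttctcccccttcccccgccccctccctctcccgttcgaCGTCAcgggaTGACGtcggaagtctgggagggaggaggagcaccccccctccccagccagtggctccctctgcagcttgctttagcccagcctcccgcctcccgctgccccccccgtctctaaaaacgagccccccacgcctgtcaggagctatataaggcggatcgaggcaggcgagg
Nr4a1, chr15:101266596-101266845, plus strand: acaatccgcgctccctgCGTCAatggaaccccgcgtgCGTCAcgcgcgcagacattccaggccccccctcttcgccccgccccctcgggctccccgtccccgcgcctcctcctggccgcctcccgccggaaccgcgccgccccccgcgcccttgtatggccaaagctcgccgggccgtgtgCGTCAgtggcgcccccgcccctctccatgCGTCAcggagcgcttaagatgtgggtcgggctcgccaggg
Dusp1, chr17:26508473-26508722, minus strand: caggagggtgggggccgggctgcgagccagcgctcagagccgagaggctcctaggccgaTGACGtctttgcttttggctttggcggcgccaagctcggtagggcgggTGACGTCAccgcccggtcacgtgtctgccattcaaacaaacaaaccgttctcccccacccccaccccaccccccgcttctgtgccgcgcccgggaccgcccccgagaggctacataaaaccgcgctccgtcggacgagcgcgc

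Slower activity-induced genes and genes of the pan-reactive and A2 astrocyte lists split the knockout libraries, with KC913RR and often KC934R high and the other 2 near wild type. Gfap, the intermediate filament of astrocytes that marks their reactive state, was at 307, 326, 320 and 337 CPM in wild type and at 2018, 288, 1059 and 295 CPM in knockout. KC913RR and KC934R were above every wild type library, and KC916RRL and KC935LL were below every one. The log2 difference of Gfap was 1.5 ± 0.65 (adjusted p = 0.524, edgeR quasi-likelihood test with Benjamini-Hochberg adjustment), beside 1.72 ± 0.65 on the standard diet. With 1 surrogate variable the Gfap difference was -0.048, and the standard diet value was 0.50 with the 12 libraries that express Xist.

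The filament gene Vim was also highest in KC913RR and KC934R, at 23.7 to 24.2 CPM in wild type and at 128, 22.3, 71.2 and 27.0 CPM in knockout, with KC935LL above and KC916RRL below every wild type library. Serpina3n, a secreted protease inhibitor, was at 39.7 to 46.3 CPM in wild type and 179, 48.3, 125 and 45.9 CPM in knockout, with KC916RRL above every wild type library and KC935LL within their range. The water channel Aqp4 was at 121 to 140 CPM in wild type and at 244, 107, 230 and 114 CPM in knockout. These 3 log2 differences were 1.38 for Vim, 1.22 for Serpina3n and 0.45 for Aqp4, each with a spread in knockout far wider than in wild type. The difference of Aqp4 was -0.12 with 1 surrogate variable.

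Of 10 tested pan-reactive astrocyte genes, 6 were higher at an unadjusted p under 0.05 (5.24% of all genes), 1 without overlap (2.00%), and the median log2 difference was 1.42, beside 0.985 on the standard diet, or 0.398 with the 12 libraries that express Xist. Without KC913RR, 1 of the 10 had p under 0.05 and the median was 0.26. The count was also 1 without wild type KC846L and 2 without wild type KC843RL or KC844RR, with medians of 1.37 to 1.51. The gene without overlap was Hspb1, a small heat shock protein, at 2.27 to 2.87 CPM in wild type and at 20.8, 3.29, 3.37 and 3.88 CPM in knockout. Cd44, a hyaluronan receptor, was at 47.1 CPM in KC913RR and at 2.73 to 5.03 CPM in the other 7 libraries. Ptx3, a secreted pentraxin, was at 37.5 CPM in KC913RR and at 0.756 to 1.59 CPM in the other 7. Of 11 genes of the A2 reactive class, 5 were higher at an unadjusted p under 0.05, and the median of 0.82 became 0.137 without KC913RR. Of 11 genes of the A1 reactive class, 1 was higher at an unadjusted p under 0.05. The A1 median was 0.129, and became 0.056 without KC913RR and 0.035 without KC935LL. It was 0.677 on the standard diet, or 0.293 with the 12 libraries that express Xist. The A1 list mean showed no such split, at 2.22, 2.15, 2.19 and 2.2 log2 CPM in knockout and 2.03 to 2.15 in wild type. The 16 general astrocyte genes had none at p under 0.05 in either direction. The part of astrocyte number in these differences was not tested.

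All 17 late activity-induced genes had a log2 difference above 0, of which 2 had an unadjusted p under 0.05, with a median of 0.40 that became -0.094 without KC913RR. The neuropeptide precursor Vgf was at 171 to 194 CPM in wild type and at 585, 173, 306 and 163 CPM in knockout. Rgs4, which shortens G protein signals, was at 129 to 154 CPM in wild type and at 531, 122, 262 and 122 CPM in knockout. Both again were high in KC913RR and KC934R and near or below wild type in the other 2.

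Among 16 neuropeptide genes known to respond to seizures, 6 were higher and 2 lower at an unadjusted p under 0.05, the 2 lower ones without overlap. Penk, the enkephalin precursor, was at 11.9 to 17.2 CPM in wild type and at 108, 10.2, 119 and 12.4 CPM in knockout. Npy, neuropeptide Y, was at 15.1 to 20.2 CPM in wild type and at 59.9, 20, 100 and 18.4 CPM in knockout. Gal, the galanin precursor, was at 0.118 to 0.82 CPM in wild type and at 8.83, 0.224, 8.01 and 0.176 CPM in knockout. Each of the 3 was several times above wild type in KC913RR and KC934R and within or near the wild type range in KC916RRL and KC935LL. Their log2 differences on the ketogenic and the standard diet were 2.17 and 2.04 for Penk, 1.46 and 2.16 for Npy and 3.48 in both for Gal. Striatal marker genes, a list of 7, had mean log2 CPM of 2.66 to 3.01 in wild type and 3.46, 3, 3.28 and 2.87 in knockout, above the wild type range in the same 2 libraries, and their part in these values was not tested.

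Pdyn, the dynorphin precursor of granule cells, was lower in every knockout library, at 14.1, 11.3, 12.5 and 17.1 CPM in wild type against 5.75, 9.57, 9.23 and 9.22 CPM in knockout. Cck, cholecystokinin, was at 194, 215, 203 and 236 CPM against 165, 181, 152 and 171 CPM. The log2 differences were -0.70 for Pdyn and -0.35 for Cck, and on the standard diet -0.058 and -0.50, with -0.19 for Pdyn without KC888LL. The 11 dentate granule cell markers had mean log2 CPM of 5.45 to 5.98 in wild type and 5.08, 5.65, 5.31 and 5.6 in knockout, below the wild type range in KC913RR and KC934R. Their part in the values of Pdyn, and of Gabrd below, was not tested.

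**Figure D4:**
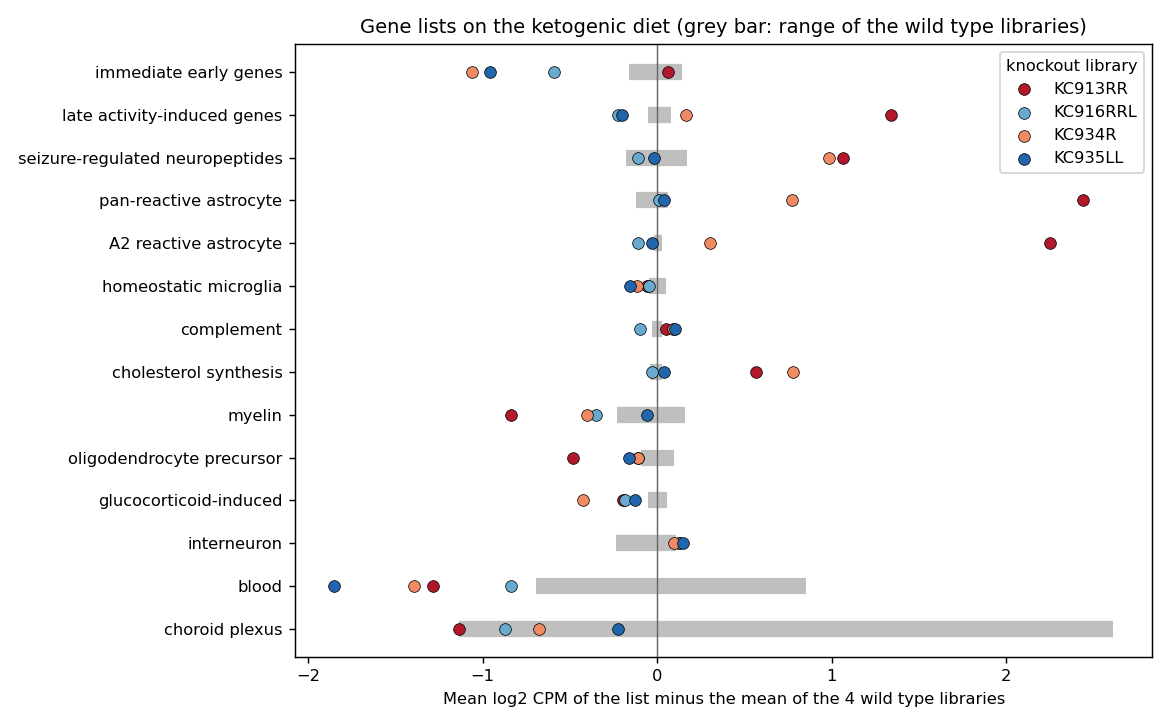
Mean log2 CPM of 14 gene lists (rows) in each knockout library on the ketogenic diet (points, coloured by library), minus the mean of the 4 wild type libraries, whose range is the grey bar. KC913RR and KC934R lie above that range for reactive astrocyte, neuropeptide and cholesterol genes, and all 4 knockout libraries lie below it for blood genes.

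The spread between animals was wider in knockout. The median SD of log2 CPM over 4 libraries was 0.134 in wild type and 0.187 in knockout, and the SD was larger in knockout for 11495 genes, 65.8% of those tested. KC913RR was the knockout library farthest from the wild type mean for 892 of the 1610 genes with an unadjusted p under 0.05 (55.4%), beside 43.6% of all tested genes. KC934R was the farthest for 435 (27%, beside 26.7%), KC935LL for 153 and KC916RRL for 130.

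Cholesterol synthesis genes, which the transcription factor SREBP2 turns on when membrane sterol is low, had higher values in the same pair of knockout libraries. Of 23 tested, 14 were higher at an unadjusted p under 0.05 (5.24% of all genes), 22 had a log2 difference above 0, 3 did not overlap (2.00%), and the median was 0.40. For 20 of the 23, KC913RR and KC934R were both above all other 6 libraries. The count of 14 became 4 without KC913RR and 2 without KC934R, and the median became 0.23 without KC934R. On the standard diet the median was -0.26, and for 17 of 23 the interaction had an unadjusted p under 0.05 with an effect more positive on the ketogenic diet, beside 3.38% of all tested genes. The number was 18 without KC888LL (5.69% of all genes) and 3 with the 12 libraries that express Xist (1.29%), where the standard diet median was -0.079. None of these interactions passed the adjusted threshold, and over all genes 1306 had an unadjusted interaction p under 0.05 and 0 were called by edgeR's quasi-likelihood test.

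Hmgcs1, the synthase of the pathway's entry, was at 206, 229, 210 and 209 CPM in wild type and at 439, 188, 463 and 226 CPM in knockout. Sqle, squalene epoxidase, was at 50.4 to 58.0 CPM in wild type and at 103, 51.8, 112 and 57.7 CPM in knockout. In both, KC916RRL and KC935LL were within or close to the wild type range. The log2 differences of Hmgcs1 and Sqle were 0.62 and 0.61, and on the standard diet -0.39 and -0.27, or -0.15 and -0.11 with the 12 libraries that express Xist.

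Mvk, mevalonate kinase, was one of the listed genes without overlap. It was at 12.8, 13.2, 14.3 and 13.6 CPM in wild type and at 17.3, 16.6, 24.1 and 16.6 CPM in knockout. KC934R was the highest library, and the log2 difference of Mvk was 0.48. The sterol element TCACNCCAC, searched on both strands of the 250 bases before the start, was in 1 of the 16 members with a promoter at hand, Hmgcs1, beside 1.22% of all genes.

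Of 5 tested red blood cell genes, 4 were lower in every knockout library than in any wild type library. Hbb-bt, a beta globin, was at 1.88, 3.19, 4.77 and 2.05 CPM in wild type and at 0.669 to 1.2 CPM in knockout. Hbb-bs, its neighbour, was at 19.0, 32.9, 43.2 and 17.1 CPM against 9.1, 11.4, 7.9 and 6.99 CPM, and the alpha globin Hba-a1 at 24.7, 38.1, 51.6 and 21.4 CPM against 11.7, 18.2, 8.23 and 8.99 CPM. No group overlapped in these 3, and KC844RR was the highest library for each. The log2 differences were -1.72 for Hbb-bt, -1.67 for Hbb-bs and -1.54 for Hba-a1, with adjusted p of 0.141 to 0.188 in edgeR's quasi-likelihood test with Benjamini-Hochberg adjustment. Alas2, which starts haem synthesis in red cells, had a log2 difference of -1.64. All 4 genes passed in DESeq2 (adjusted p from 1.61e-05 for Hbb-bs to 0.00938 for Alas2), Hbb-bs passed in edgeR without robust estimation (0.023) and Hbb-bt without the filter on low counts (0.00532). Without wild type KC846L, Hbb-bs (0.0354) and Hbb-bt (0.0399) passed in edgeR. The globin genes have near-identical copies, so their single rows are uncertain.

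These 4 were lower at an unadjusted p under 0.05, and the median over the 5 was -1.64, beside 0.34 on the standard diet, or 0.155 with the 12 libraries that express Xist. The mean log2 CPM over the 5 was 1.64 to 3.19 in the wild type and 0.484 to 1.5 in the knockout libraries. The interaction had an unadjusted p under 0.05 for 4 of the 5, with an effect more negative on the ketogenic diet. The share over all tested genes was 4.09%. For Hbb-bt the interaction p was 2.52e-05, with an adjusted p of 0.22 by edgeR. The amount of blood left in the tissue at dissection was not tested.

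Myelin genes had lower values in knockout on this diet. All 15 tested had a log2 difference below 0, and 7 were lower at an unadjusted p under 0.05, with a median of -0.40, beside -0.011 on the standard diet, or 0.104 with the 12 libraries that express Xist. The mean log2 CPM over the list was 6.09 to 6.48 in wild type and 5.48, 5.97, 5.92 and 6.26 in knockout, so KC935LL lay within the wild type range. The count of 7 moved between 4, without wild type KC844RR, and 14, without KC935LL, and the median became -0.22 without KC913RR. Thalamus markers, a list of 10 genes, had mean log2 CPM of 3.31 to 3.46 in wild type and 3.04, 3.25, 3.08 and 3.57 in knockout, so KC913RR was lowest and KC935LL highest of the knockout libraries, as for myelin. The part of neighbouring tissue in the myelin values was not tested. Mbp, myelin basic protein, was at 1716, 1881, 1770 and 1556 CPM in wild type and at 866, 1374, 1096 and 1606 CPM in knockout. Mag, an axon-facing adhesion protein, was at 93.3 to 117 against 59.9 to 95.7 CPM. Both overlapped through KC935LL, and their log2 differences were -0.49 for Mbp and -0.47 for Mag.

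Among 13 oligodendrocyte precursor genes, 3 were lower at an unadjusted p under 0.05, and 2 of them did not overlap. Enpp6, a marker of newly forming oligodendrocytes, was at 5.78 to 8.2 CPM in wild type and 3.01 to 4.79 CPM in knockout, without overlap, a log2 difference of -0.82, beside 0.55 on the standard diet, or 0.20 with the 12 libraries that express Xist. Of 17 homeostatic microglia genes, 0 were higher and 1 was lower at an unadjusted p under 0.05, with a median of -0.14, beside 0.51 on the standard diet. Of 16 disease-associated microglia genes the counts were 0 and 1, with a median of 0.00831 beside 0.80, and of 14 complement genes 0 and 0, with a median of -0.00567 beside 0.84. With single ketogenic diet libraries left out, these 2 medians changed sign, from -0.070 without KC934R to 0.055 without KC916RRL for the disease-associated and from -0.029 without KC844RR to 0.11 without KC913RR for the complement genes. For 8 of the 17 homeostatic, 9 of the 16 disease-associated and 3 of the 14 complement genes the interaction had an unadjusted p under 0.05, with a more negative effect on the ketogenic diet (4.09% of all tested genes). The 2 comparisons share no library. In the standard diet knockout, KC872RL and KC873RR gave the highest list means, 4.95 and 4.87 for homeostatic microglia beside 3.92 and 3.97 in the other 2. These are the 2 labelled knockout libraries on that diet with the male pattern. The 12 libraries that express Xist keep 2 labelled knockout on that diet, and 1 of them is KC888LL. With those 12, the standard diet medians were -0.05 for homeostatic microglia, 0.10 for disease-associated microglia and 0.15 for complement. In that fit 1, 0 and 1 genes had an interaction p under 0.05 with a more negative effect (1.76% of all genes). Without KC888LL the medians were 0.66, 1.04 and 1.03, and the numbers of such genes were 15, 11 and 8 (5.79%). The parts of the sex pattern and of KC888LL in these values were not tested.

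Interneuron genes were higher for 4 of 16 at an unadjusted p under 0.05, 3 of the 16 without overlap, and lower for 0. Their median log2 difference of 0.104 became 0.020 without wild type KC846L. The list mean was 5.82, 5.75, 5.81 and 5.48 log2 CPM in wild type and 5.81 to 5.86 in knockout, with KC846L lowest. Gad2, which makes GABA at terminals, was at 183, 182, 165 and 159 CPM in wild type and at 289, 180, 268 and 210 CPM in knockout, with KC916RRL inside the wild type range. Reln, the secreted glycoprotein reelin, was at 118, 112, 114 and 101 CPM against 170, 127, 172 and 126 CPM without overlap. Slc32a1, the vesicular GABA transporter, was at 68.1 to 75.9 against 77.9 to 87.6 CPM without overlap. Gad1, the other GABA-making enzyme, was at 321 to 353 against 345 to 478 CPM. The log2 differences were 0.46 for Gad2, 0.42 for Reln, 0.21 for Slc32a1 and 0.24 for Gad1. Gad2 and Reln were highest in KC913RR and KC934R, where the striatal list mean lay above the wild type range, and its part was not tested.

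Kcna1 was the 1 Kcna gene with an unadjusted p under 0.05. The 5 others tested had log2 differences between -0.011 and 0.64 and unadjusted p from 0.0563 to 0.87. Of 15 Kv1 subunits and partners, 3 were lower at an unadjusted p under 0.05: Kcna1, Cntnap2 and Kcnab1. Cntnap2, the adhesion protein that clusters Kv1 channels beside nodes of Ranvier, was at 114, 115, 107 and 118 CPM in wild type and at 76.3, 99.5, 77.8 and 108 CPM in knockout. It lies on chromosome 6 as Kcna1 does, and its log2 difference was -0.33. Kcnab1, a cytoplasmic beta subunit, was at 121 to 160 against 106 to 138 CPM, a log2 difference of -0.22, with KC916RRL the high knockout library.

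Of 25 other potassium channel genes, 2 were higher and 3 lower at an unadjusted p under 0.05, of 20 sodium and calcium channel genes 3 and 1, and of 5 HCN pacemaker channel genes 0 and 2, beside 9.22% of all genes in both directions. Kcnc4, a fast Kv3 channel, was at 65.2 to 87.5 CPM in wild type and 87.0 to 117 CPM in knockout, and Kcnq3, a subunit of the M current, was at 274, 263, 247 and 248 CPM against 154, 228, 175 and 218 CPM. The log2 differences were 0.41 for Kcnc4 and -0.42 for Kcnq3, and 0.31 and -0.42 on the standard diet. Cacna2d2, an accessory subunit of calcium channels, was at 34.6, 31.5, 37.5 and 29.8 CPM in wild type and at 105, 39.3, 56.4 and 61.9 CPM in knockout without overlap, a log2 difference of 0.98. Scn4b, a sodium channel beta subunit, was at 17.8 to 34.7 against 6.56 to 20.3 CPM (-0.82), and Hcn2, a pacemaker channel, at 96.0 to 109 against 83.1 to 96.5 CPM (-0.19).

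Of 18 genes of GABA receptors and chloride transport, 2 were higher and 2 lower at an unadjusted p under 0.05. Gabrd, the delta subunit of receptors outside synapses, was at 21.5, 16.7, 20.4 and 25.7 CPM in wild type and at 5.15, 16.1, 7.96 and 17.7 CPM in knockout, a log2 difference of -0.85. KC913RR and KC934R were again the libraries farthest from wild type. Gabrb1, a beta subunit, was at 203 to 288 against 298 to 379 CPM without overlap (log2 difference 0.32), and overlaps Gabra4 on the opposite strand, which averaged 98.7 CPM.

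Fuel genes showed small differences beside Gapdh. Of 20 genes of glycolysis and glucose transport, 4 were higher and 1 lower at an unadjusted p under 0.05, and 4 were higher without overlap. Gapdh, whose call rests on counting the Gm13394 row apart, is in both counts of 4. Slc2a3, the neuronal glucose transporter, was at 175, 174, 171 and 165 CPM in wild type and at 225, 178, 178 and 192 CPM in knockout, and lies on chromosome 6. Pfkp, a phosphofructokinase, was at 245 to 268 against 260 to 396 CPM, and Aldoa, an aldolase, at 1315 to 1433 against 1371 to 1873 CPM, both highest in KC913RR. The log2 differences of Slc2a3, Pfkp and Aldoa were 0.17, 0.26 and 0.23. The interaction had an unadjusted p of 0.00405, 0.00413 and 0.0413 by edgeR's test. Without KC888LL these p were 0.0016, 0.00347 and 0.0563, and with the 12 libraries that express Xist 0.0486, 0.0561 and 0.154. Ldhb, the lactate dehydrogenase subunit that favours pyruvate, was at 197 to 224 against 154 to 206 CPM (-0.17).

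Of 24 genes of fatty acid oxidation and ketone use, 4 were higher and 0 lower at an unadjusted p under 0.05. Slc16a7, a monocarboxylate transporter that carries lactate and ketone bodies into neurons, was at 44.2 to 52.9 CPM in wild type and 50.5 to 65.6 CPM in knockout. Acat1, which acts in ketone body breakdown, was at 92.4 to 95.4 against 99.4 to 110 CPM without overlap, and Angptl4, a lipase inhibitor that fasting induces, at 1.46 to 2.79 against 2.99 to 4.68 CPM without overlap. The log2 differences were 0.25 for Slc16a7, 0.15 for Acat1 and 0.78 for Angptl4. Pdk4, which holds back pyruvate entry into mitochondria when fat is burned, was at 9.79 to 14.3 against 6.09 to 13.3 CPM, a log2 difference of -0.26 with an unadjusted p of 0.237 in edgeR's test.

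Glucocorticoid-induced genes were lower for 6 of 14 at an unadjusted p under 0.05, 3 of them without overlap, and higher for 0, with a median of -0.21 beside 0.12 on the standard diet, or 0.195 there without KC888LL. The count ran from 3 to 7 with single libraries left out. Per1, a clock gene that glucocorticoids and activity also induce, was at 102, 86.5, 95.5 and 95.2 CPM in wild type and at 60.9, 84.6, 68.6 and 73.3 CPM in knockout. Plin4, a lipid droplet protein, was at 8.97 to 11.2 against 4.25 to 8.75 CPM, and Zbtb16, a zinc finger factor, at 130 to 144 against 89.4 to 139 CPM. The log2 differences of Per1, Plin4 and Zbtb16 were -0.40, -0.57 and -0.29. Sik1, a kinase induced by cyclic AMP, was at 11.5 to 19.4 against 8.07 to 14.2 CPM (-0.59).

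The genes with the smallest p among those without overlap also included several outside these lists. Rapgef4, which encodes the cyclic AMP sensor Epac2, was at 455, 453, 463 and 450 CPM in wild type and at 340, 393, 375 and 372 CPM in knockout. Its wild type values lay close together. The log2 difference of Rapgef4 was -0.30 (adjusted p = 0.151, edgeR quasi-likelihood test with Benjamini-Hochberg adjustment), beside -0.015 on the standard diet, or 0.019 there without KC888LL. Rapgef4 passed in the same test without the filter on low counts (adjusted p = 0.0368) and without KC916RRL (0.046). Fxyd7, a regulator of the sodium pump in neurons, was at 18.3 to 24.3 against 6.29 to 15.3 CPM (log2 difference -0.90), and Plekhg1, a guanine nucleotide exchange factor, at 27.0 to 33.6 against 18.1 to 25.6 CPM (-0.56). The row of the microRNA gene Mir6982, at 2.14 to 2.43 against 0.763 to 1.27 CPM (-1.21), lies within Camk2a on the same strand, which averaged 4570 CPM, so reads of that gene may be counted there.

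On the higher side, Rxfp3, the receptor of relaxin-3, was at 9.04, 9.18, 8.9 and 6.7 CPM in wild type and at 13.2, 11.4, 15.1 and 14.8 CPM in knockout, a log2 difference of 0.69. Prmt5, an arginine methyltransferase, was at 44.2 to 48.8 against 52.0 to 58.0 CPM (0.24), and Ston2, an adaptor of synaptic vesicle endocytosis, at 12.9 to 15.4 against 16.6 to 19.0 CPM (0.36). C2cd4c was at 15.2 to 19.9 against 20.9 to 30.7 CPM (0.54), Faxc at 55.8 to 59.7 against 65.1 to 75.4 CPM (0.28) and Soga3 at 84.5 to 93.0 against 98.2 to 106 CPM (0.22). None of these groups overlapped.

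Collagen genes were among them. Col3a1, a fibrillar collagen, was at 1.98, 2.48, 3.36 and 1.41 CPM in wild type and at 9.23, 4.19, 15.2 and 4.29 CPM in knockout, a log2 difference of 1.86. Col1a1, its partner in fibrils, was at 5.34 to 8.31 against 10.2 to 19.3 CPM (0.95), and Col12a1, which binds such fibrils, at 11.6, 11.2, 11.8 and 6.7 against 18.0, 15, 18.8 and 14.8 CPM (0.70). All 3 were higher in every knockout library. Of 14 listed genes of collagen and meninges, 2 were higher and 1 lower at an unadjusted p under 0.05, and 3 were higher without overlap. How much of the meninges was taken with the tissue was not tested, and the mean log2 CPM over the list, 3 to 3.99 in wild type and 3.42 to 4.01 in knockout, overlapped between the groups.

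Set beside the standard diet, where 2504 of the 17469 tested genes had an unadjusted p under 0.05, 308 genes had one on both diets. Of these, 280 had the same sign, which is 17.4% of the ketogenic and 11.2% of the standard diet list. Of the 1610 genes on the ketogenic diet, 1118 (69.4%) had the same sign on the standard diet, beside 57.3% of all tested genes. The genes at an unadjusted p under 0.05 on both diets numbered 566 without KC888LL, 493 of them with the same sign, and 64 with the 12 libraries that express Xist, 57 of them with the same sign. In those 2 fits 3767 of 17725 and 545 of 17755 tested genes had such a p on the standard diet. The 2 contrasts have no library in common, and share the estimate of the spread.

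**Figure D5:**
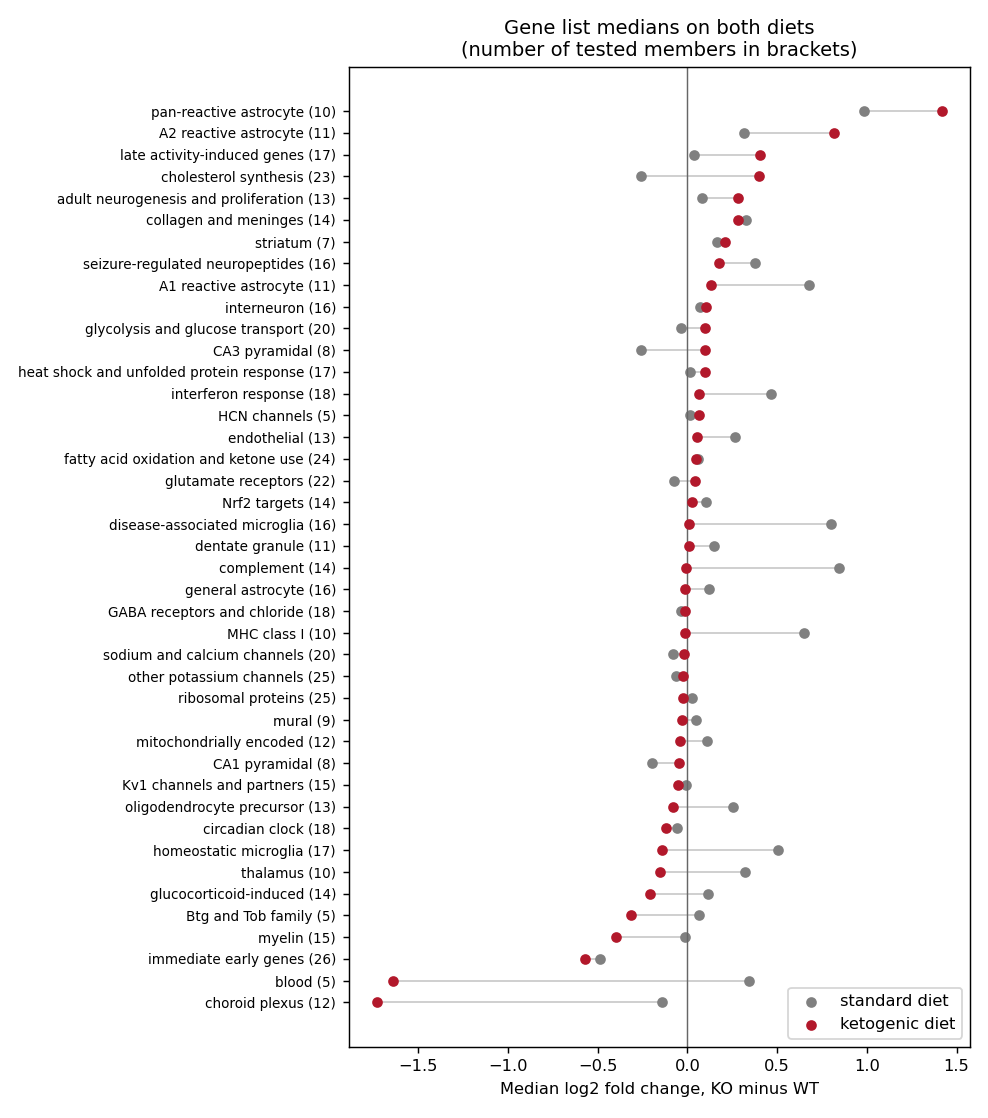
Median log2 difference between knockout and wild type for each of the 42 gene lists (number of tested genes in brackets), on the ketogenic diet (red) and the standard diet (grey). Immediate early genes have negative medians on both diets (-0.57 and -0.49), while blood (-1.64 and 0.34) and cholesterol genes (0.40 and -0.26) have medians of opposite sign.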

How the data were processed

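RNA sequencing counts per gene from the hippocampus of 16 mice were deposited by the authors as 1 table of raw counts, with no normalization. The submitters' processing notes name the mm10 build and DESeq2, with no role given; the aligner, counting program, annotation, strand and library kit are not given in the sources used here. Columns were assigned to groups by the genotype and diet in their names. Positions are those of GENCODE M21 (GRCm38), which held 49056 of the 49315 identifiers.

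Low genes were removed with filterByExpr, TMM factors were computed, and all 16 libraries entered a robust quasi-likelihood model with a coefficient for each group in edgeR 4.0.16 (R 4.3.3, 12 residual degrees of freedom). Two-sided quasi-likelihood F tests of 17469 genes received Benjamini-Hochberg adjustment, and genes with an adjusted p under 0.05 were called. The fit was tested on simulated data, and the outcome is not reported here. Log2 CPM used a prior count of 2. Sharing the spread over all 16 libraries lets standard diet libraries affect these p-values.

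The members and the 42 gene lists (608 genes, 594 tested) were chosen with earlier results of these data known, so no list was tested as a set. Genes were named by a rule: Kcna1, called genes, the 12 of smallest p in each direction without overlap and at least 1 CPM, the 8 of smallest p within 20 Mb of Kcna1, 8 fixed genes, and up to 3 per list. Other list members were named after their values were seen. Alternatives were DESeq2 1.42.0, limma 3.58.1 (voom), sva 3.50.0, other scalings and filters, fewer libraries and each library left out. Chosen after seeing the data were the sum of Gapdh and Gm13394, the 12 libraries with Xist, and standard diet values without KC888LL. Promoter sequences came from RefSeq (GRCm38.p6). Values of some list members are not reported here.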

Additional observations from a re-analysis of the deposited data

Results flagged for a closer look

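Within each group of 4 libraries, the highest or lowest library was set against the other 3 for 99 genes and 42 lists, and 16 of 282 groups (5.67%) passed the Dixon limit for a value far from the others, which chance passes in about 1 in 20.

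In wild type, KC846L, the library with the male pattern, was lowest for Rxfp3 (6.7 CPM) and Col12a1 (6.7 CPM) and highest for Gm45869 (9.97 CPM) and Scn4b (34.7 CPM). KC844RR was highest for Ttr (957 CPM) and for the choroid plexus list (mean log2 CPM 4.29). In that list 0 of 12 genes had an unadjusted p under 0.05 in either direction, and the median log2 difference of -1.73 became 0.22 without KC844RR.

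In knockout, KC913RR was highest for Fosb (48.2 CPM), Hspb1 (20.8 CPM), Cd44 (47.1 CPM), Ptx3 (37.5 CPM), Xbp1 (75.7 CPM) and the glutamate receptor list (mean log2 CPM 6.75). It was lowest for Pdyn (5.75 CPM) and for the oligodendrocyte precursor list (mean log2 CPM 4.09). KC916RRL was highest for Kcnab1 (138 CPM), and KC934R for Mvk (24.1 CPM).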

How the results depend on the processing

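No paired analysis was possible because the columns of the count table carry animal tags and no replicate numbers.

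The number of genes called moved from 3 to 11 without the filter on low counts, 5 without robust estimation, 33 with DESeq2, 5 with voom, 0 with 1 surrogate variable from sva, 5 without KC888LL, 1 with the 12 libraries that express Xist and 1 with Gapdh and Gm13394 summed. Leaving out single libraries gave 1 to 13. Without the filter, edgeR also called C2cd4c, Col12a1, Gm26826, Gm45869, Hbb-bt, Per1, Rapgef4 and Rxfp3. Without KC916RRL it also called Dnah1, Dusp1, Gad2, Mlip, Nnmt, Pde4b, Per1, Plekhg1, Pou3f1 and Rapgef4. Without KC846L it also called Dusp1, Gm45869, Hbb-bs and Hbb-bt. The fit without KC935LL also called C2cd4c and Ccdc88b, and the fit without KC913RR called Csrnp1 and Fosb beside Kcna1 and Gapdh. Beside the sva count of 0, 848 genes had an unadjusted p under 0.05 in that fit, and the log2 fold change of Kcna1 was -1.26 (adjusted p = 0.0837). Of the 24 genes near Kcna1 at p under 0.05, 12 were under 0.01. With the 8 ketogenic diet libraries alone, 9 cholesterol genes and 3 pan-reactive astrocyte genes had p under 0.05, the latter also 3 with the Xist libraries. With single libraries left out, the counts ran from 2 to 20 for cholesterol, 1 to 9 for pan-reactive, 4 to 14 for myelin and 3 to 7 for glucocorticoid genes.

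The log2 fold change changed sign with sva for Gfap (-0.048), Aqp4 (-0.12), Fosb (-0.98), Rgs4 (-0.080), Cd44 (-0.14) and Ptx3 (-0.36), and with voom for Fosb (-0.33). With single libraries left out it ran from -1.06 to 0.63 for Fosb, -0.29 to 3.52 for Ptx3 and -4.14 to 0.38 for Ttr. The causes were not tested. Of 2071 log2 fold changes of named genes under the alternatives, 1997 kept direction and side of the threshold. Most of these genes were not called in the main fit, so staying uncalled counted as kept, as did a missing p-value. The call was lost in 17 cases, all of them for Kcna1, Gapdh or Btg2. It was gained in 47 cases, and the direction changed in 10.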

Other observations

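The counts at an unadjusted p under 0.05 were 0 of 25 ribosomal protein genes, 0 of 12 mitochondrially encoded genes, 0 of 14 Nrf2 targets, 0 of 10 MHC class I genes and 0 of 9 mural cell genes. Of 17 heat shock and unfolded protein genes, 1 was higher: Xbp1, a transcription factor of the unfolded protein response, at 52.9 to 58.5 CPM in wild type and 60.9 to 75.7 CPM in knockout. Of 22 glutamate receptor genes, 4 were higher and 0 lower, beside 5.24% and 3.97% of all genes.

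The presynaptic calcium channel gene Cacna1b was at 206 to 218 CPM in wild type and 223 to 237 CPM in knockout, with no overlap. Its log2 difference was 0.13, beside -0.14 on the standard diet, or -0.073 there with the 12 libraries that express Xist. The microglial transcription factor gene Sall1 was at 21.7 to 24 against 17.2 to 19.9 CPM, lower in every knockout library. The clock gene Cry2 was at 151 to 160 against 132 to 150 CPM. These 3 genes were chosen after their values were seen.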
